A study of Mus musculus with 2 samples.

Results

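Immunoglobulin genes were measured in total RNA of the adrenal gland of 2 aged female mice. The members were the genes annotated as immunoglobulin constant or variable genes whose expected count, summed over both animals, was above 0. They were thus chosen by their measured counts in these same libraries, so that being detected is no finding, and they were grouped by the heavy, kappa and lambda locus. The rule kept 93 of 231 annotated constant and variable genes, out of 55536 named genes in the table. Of 13 constant genes, 11 were members, and the other two, Ighe and Iglc4, were listed at 0 in both animals. Of 218 variable genes, 82 were members, namely 38 of 113 in the heavy locus, 43 of 100 in the kappa locus and 1 of 3 in the lambda locus. A further 2 variable genes annotated outside these loci were at 0. The lowest members, 30 genes, had a summed count of 1, and the 138 genes outside the rule had 0.

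Both animals belonged to 1 group and there was no control or treated group. The mice were B6CASTF1/J females with no treatment named in the labels, described there as the F1 of B6 and Cast, from The Jackson Laboratory and 18 to 20 months old. From each animal 300 ng of adrenal gland RNA, with ERCC spike-in RNA added, gave 1 directional, ribosomal RNA-reduced library. The labels give both animals 1 donor identifier but separate biosamples, and 1 label of animal 2 repeats the name of animal 1. The reference was that of C57BL/6J, so alleles from the CAST parent are not represented in it, and any effect of this on the counts was not tested. With 1 group of 2 animals, the comparison possible was that of animal 1 with animal 2, and it has no replicate check. No p-value is given for it, and intervals cover counting error alone, since the reads carry no molecular identifiers and copies of 1 molecule may be counted repeatedly.

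An antibody or B cell receptor joins 2 kinds of protein chain, heavy and light, and each chain has a variable part that binds antigen and a constant part. In a developing B cell 1 variable gene of a locus is joined by DNA rearrangement to short joining segments, and the messenger RNA of the rearranged gene carries a variable and a constant part. The first heavy constant gene used is Ighm, which encodes the mu chain of IgM; class switching replaces it with a gamma, alpha or epsilon gene. B cells place the receptor in the membrane, whereas plasma cells secrete large amounts of the antibody. The adrenal gland is not a lymphoid organ, and immune cells are a small fraction of its cells. In bulk tissue, fewer cells of a type and less RNA per cell cannot be told apart.

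The end of the heavy chain RNA separates the secreted antibody from the receptor, and these ends are shown because the results below compare mu and alpha transcripts by form. Sequences are GENCODE M21 transcripts on mm10 (GRCm38), minus strand of chromosome 12, written 5′ to 3′, and capitals mark the stop codon. The secreted mu tail lies at chr12:113420867-113420928, the membrane mu end at chr12:113418826-113419068 across an intron, the secreted alpha tail at chr12:113258768-113258829 and the membrane alpha end at chr12:113256201-113256397.
Ighm secreted tail: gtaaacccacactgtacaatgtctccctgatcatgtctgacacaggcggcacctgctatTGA
Ighm membrane end: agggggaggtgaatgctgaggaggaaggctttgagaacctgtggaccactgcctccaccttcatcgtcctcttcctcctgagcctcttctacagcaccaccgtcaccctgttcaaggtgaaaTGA
Igha secreted tail: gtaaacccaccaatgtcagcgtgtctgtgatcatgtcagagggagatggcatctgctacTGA
Igha membrane end: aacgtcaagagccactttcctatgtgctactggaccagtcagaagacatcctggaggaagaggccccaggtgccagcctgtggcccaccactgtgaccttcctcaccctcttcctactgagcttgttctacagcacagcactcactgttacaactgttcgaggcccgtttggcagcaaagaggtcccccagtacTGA

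The variable genes below are 7 of those with the highest counts in either animal, and their last 45 coding bases are shown because rearrangement joins the next segment there. Capitals mark the codon of the second conserved cysteine, found in frame. Ighv1-61 (chr12:115359140-115359184, minus strand), Ighv3-6 (chr12:114288152-114288196, minus strand), Igkv8-30 (chr6:70117061-70117105, minus strand), Igkv8-16 (chr6:70386672-70386716, minus strand) and Igkv14-126 (chr6:67896598-67896642, plus strand) were among the leading genes of animal 1. Ighv12-3 (chr12:114366521-114366565, minus strand) and Igkv4-91 (chr6:68768555-68768599, minus strand) led in animal 2.
Ighv1-61: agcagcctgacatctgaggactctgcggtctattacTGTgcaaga
Ighv3-6: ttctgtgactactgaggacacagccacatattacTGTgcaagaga
Ighv12-3: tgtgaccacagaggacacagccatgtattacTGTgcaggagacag
Igkv8-30: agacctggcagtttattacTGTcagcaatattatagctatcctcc
Igkv8-16: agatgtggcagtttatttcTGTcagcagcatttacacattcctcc
Igkv14-126: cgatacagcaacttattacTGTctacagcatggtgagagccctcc
Igkv4-91: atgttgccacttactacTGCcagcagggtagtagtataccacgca

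The libraries held 35769717 and 35135703 expected counts in animal 1 and animal 2, and a gene with no count could have had up to 3, or 0.0846 and 0.0860 CPM (the count scaled to library size). Expected counts are reads assigned to a gene by the authors' quantification, and TPM is a level normalised for transcript length and depth. Ratios between animals are of counts scaled by TMM, which sets the bulk of genes equal. Among the 17012 genes whose mean count reached 10, the median log2 ratio of animal 2 over animal 1 was -0.01, and 95% of genes lay between -1.29 and 1.16. Scaling to the spike-ins moved that median to 0.21, and ratios are given relative to the TMM scale. All 8 skeletal muscle marker genes were at least 2-fold higher in animal 1, with a summed level of 168.5 TPM against 0.35, of which Ckm, Myh2, Myh4 and Atp2a1 were listed at 0 in animal 2 in the gene table. The 8 adrenal cortex genes had 15869 and 20272 TPM and the 5 chromaffin cell genes 1796 and 1517 TPM, with none past 2-fold, so that the labelled tissue was present in both libraries.

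Summed immunoglobulin RNA was far more abundant in animal 1 than in animal 2, and among the 11 members with a mean count of 10 or more, Ighm alone was less than 2-fold apart. Most of these 11 passed that minimum only through animal 1. The 11 constant genes summed to 2053 counts in animal 1 and 599 in animal 2, a scaled fold of 3.24 (95% interval 2.95 to 3.55) in favour of animal 1. Their summed level was 65.7 and 13.9 TPM, or 39.8 ± 36.6 TPM (mean ± SD, n = 2 animals). The 82 variable genes summed to 321 and 25 counts, a fold of 12.1 (8.06 to 19.0), and to 30.7 and 2.67 TPM, or 16.7 ± 19.8 TPM (SD, n = 2). The SD was about as large as the mean for both kinds of gene. Of all 93 members, 81 had the higher scaled count in animal 1 and 12 in animal 2.

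Only 11 members, 8 constant and 3 variable, reached a mean count of 10, and since the mean includes the higher animal, a member could pass through animal 1 alone. Only Ighm, Igha and Igkc had 10 or more counts in animal 2 (493, 55 and 30), so the other members passed only because of animal 1. A passing member at 0 in animal 2 was past 2-fold of necessity. The calls and the median below rest largely on such members. Of the 11 members, 10 were at least 2-fold higher in animal 1, where 4.12% of all genes tested were that far apart in that direction. None was at least 2-fold higher in animal 2, where 3.57% of all genes were. The median log2 ratio of the 11 members was -4.00, beside -0.01 for all genes. A stricter rule asked for a mean count of at least 50 and the deposited TPM intervals apart. Under it, 3 of 4 members were at least 2-fold higher in animal 1 (1.75% of 13569 genes) and 0 in animal 2 (1.71%). The remaining member under both rules was Ighm.

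Among the heavy chain constant genes, all on the minus strand of chromosome 12, Ighm (chr12:113418558-113422730) had 678 counts in animal 1 and 493 in animal 2. That is 11.97 and 9.41 TPM, and a log2 ratio of -0.38 (95% interval -0.55 to -0.21), or 1.30-fold higher in animal 1. On the TMM scale the difference was larger than counting error but ordinary among genes: 3144 of 17012 genes, 18.5%, had a ratio at or below it. Spike-in scaling, which moved the median of all genes from -0.01 to 0.21, makes the Ighm difference smaller. That shift takes up the upper end of its interval (-0.21). On the spike-in scale the difference was thus no longer larger than counting error. Igha (chr12:113254830-113260236), the alpha chain of IgA, which is the antibody of mucosal surfaces, had 509 and 55 counts, or 13.04 and 1.55 TPM. Its fold was 8.74 in favour of animal 1, a log2 ratio of -3.12 (-3.56 to -2.72), reached by 100 genes or 0.588%. In animal 1 the deposited TPM intervals of Igha (11.7 to 13.9) and Ighm (10.9 to 12.7) overlapped, while in animal 2 Igha (1.15 to 1.95) lay below Ighm (8.46 to 10.1).

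The gamma genes, which encode the IgG subclasses, were present in animal 1 and nearly missing in animal 2, with 313 and 5 counts in all and a fold of 59.1 (25.1 to 183). Ighg2c (chr12:113285325-113288932) carried most of them, with 198 and 1 counts, or 5.02 and 0.03 TPM. Its log2 ratio was -6.97 with a counting interval of -12.86 to -5.05, and 26 genes (0.153%) were as low or lower. Ighg3 had 76 and 4 counts, 1.94 and 0.05 TPM, and a log2 ratio of -4.00 (-6.08 to -2.75). Ighg1 had 25 and 0 counts and was 7.87-fold higher in animal 1 with animal 2 set to the limit of 3. This fold leaves out counting error in animal 1. Ighg2b had 14.01 and 0 counts and was 4.41-fold higher on the same basis. These genes resemble each other, with Ighg2b and Ighg2c 85.7% identical over their coding sequence and the other gamma pairs 74.1% to 76.3%, so the division of reads among subclasses is less certain than their sum. Ighd, the delta chain that naive B cells carry beside mu, had 16 and 5 counts, 0.28 and 0.09 TPM, and a log2 ratio of -1.50 (-3.40 to -0.08), and its deposited TPM intervals overlapped.

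The composition of the heavy chain RNA therefore differed between the animals. In animal 1, Ighm made up 44.7% of the heavy constant counts (exact 95% interval 42.2% to 47.3%), Igha 33.6% (31.2% to 36.0%) and the gamma genes 20.6% (18.6% to 22.8%). In animal 2, Ighm made up 88.4% (85.4% to 90.9%), Igha 9.86% (7.51% to 12.6%) and the gamma genes 0.896% (0.292% to 2.08%). None of the 3 pairs of intervals overlapped. Per length, by TPM, Ighm was 36.0% and Igha 39.2% of the heavy constant level in animal 1, and 84.5% and 13.9% in animal 2, so that on this scale Igha was listed above Ighm in animal 1, within the overlapping intervals given above. Ighd was near 1% in both, with 1.06% and 0.896% of counts.

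**Figure D1:**
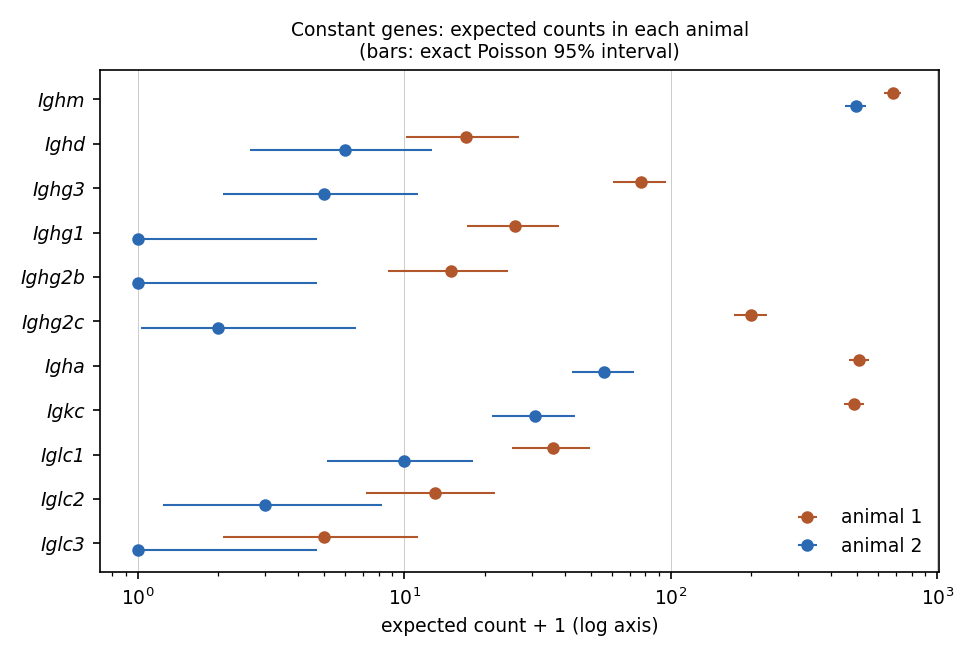
Expected count plus 1 of the 11 immunoglobulin constant genes on a log axis, with 1 point per animal and bars for the exact Poisson 95% interval. Ighm, with 678 and 493 counts, was the gene whose points lay closest together, whereas Ighg2c, with 198 and 1, was furthest apart.

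**Figure D2:**
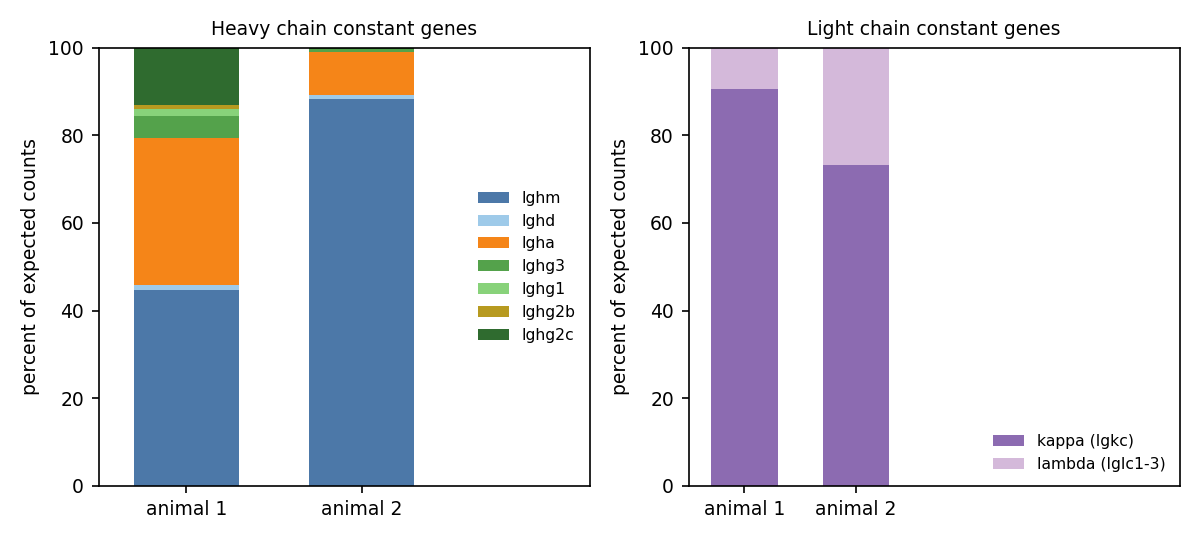
Percent of expected counts taken by each heavy constant gene (left) and by kappa and lambda constant genes (right), with 1 stacked bar per animal. Ighm filled 44.7% of the heavy bar in animal 1 and 88.4% in animal 2, and kappa filled 90.5% and 73.2% of the light bar.

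Light chain RNA was also higher in animal 1, by a wider margin than Ighm. Igkc (chr6:70726435-70726966, plus strand), the single kappa constant gene, had 486 counts in animal 1 and 30 in animal 2, or 28.9 and 1.95 TPM. The fold was 15.3 (10.6 to 22.9), and 79 genes, 0.464%, had a log2 ratio at or below its -3.91. Iglc1 (chr16:19061618-19062071, minus strand), the lambda constant gene with the most counts, had 35 and 9 counts, or 2.54 and 0.71 TPM, and a log2 ratio of -1.82 (-3.12 to -0.79). Iglc2 had 12 and 2 counts and Iglc3 had 4 and 0, and as their coding sequences are 96.2% identical, their separate values are uncertain. The lambda constant genes together had 51 and 11 counts, a fold of 4.38 (2.25 to 9.31). Kappa made up 90.5% (87.7% to 92.8%) of light constant counts in animal 1 and 73.2% (57.1% to 85.8%) in animal 2. Igkc overlaps the long noncoding gene Gm30211 on the same strand, which had 1 count in each animal.

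Light over heavy constant TPM, a ratio per length, was 0.976 in animal 1 and 0.249 in animal 2. By counts, which favour the longer heavy genes, it was 0.354 and 0.0735. Without Ighm, left out after its values were seen, the same ratio was 1.53 and 1.61 by TPM, and 0.641 and 0.631 by counts. The constant genes other than Ighm summed to 1375 and 106 counts, a fold of 12.2 (10.05 to 15.1), beside 12.4 (8.99 to 17.4) for the light chains alone and 12.1 for the variable genes. The light chains are part of the first sum, so these folds are not independent. The sums also join unlike parts, with folds from 4.38 (lambda) to 59.1 (gamma) among constant genes. Among variable genes the folds were 5.39 (heavy) and 29.7 (kappa). Ighm was 33.02% of all constant counts in animal 1 and 82.3% in animal 2. In animal 2, Ighm at 9.41 TPM stood beside light chain constant genes at 2.77 TPM and variable genes at 2.67 TPM.

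By form, the mu transcripts were a mixture of secreted and membrane ends. In the first transcript table the secreted form Ighm-201 had 448 counts in animal 1 and 280 in animal 2, or 8.27 and 5.67 TPM. The membrane form Ighm-202 had 230 and 213 counts, at 3.70 and 3.75 TPM, with intervals of 2.84 to 4.50 and 2.80 to 4.72 that overlapped. The membrane form was 33.9% and 43.1% of Ighm counts, and 36.3% and 44.0% in the second transcript table. The forms share 1305 bases, while 188 are found in the secreted form alone and 393 in the membrane form alone, so most reads were divided by estimation. Of Igha counts, 506 of 509 in animal 1 and all 55 in animal 2 went to the secreted form. Ighg2c had 193 of its 198 counts on the secreted form Ighg2c-202 in animal 1. Ighg3 had 72.8 counts on the secreted and 3.25 on the membrane form in animal 1, and 0.04 and 3.96 in animal 2. In animal 1 the alpha and gamma counts were thus mainly on secreted forms, with a smaller membrane share than that of Ighm. In animal 2 the 5 gamma counts were too few to compare, and the second table divided them differently, with the 1 Ighg2c count on the membrane form in the first table and on the secreted form in the second. Of the Ighd counts, 87.4% and 97.2% were on the longer transcript, Ighd-202.

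Variable genes were detected broadly in animal 1 and sparsely in animal 2. In animal 1, 77 variable genes had a count of at least 1 and in animal 2, 16. The 11 genes found in both were 14.3% of those of animal 1 and 68.8% of those of animal 2. As animal 2 had 25 variable counts in all, few genes could be found there. The matching overlap over all genes is not given, so these shares are no result about the members. Most values were at the edge of detection, since 48 of 82 variable members had a summed count of 2 or less. The heavy variable genes summed to 97 and 17 counts, a fold of 5.39 (3.20 to 9.62), and the kappa genes to 220 and 7, a fold of 29.7 (14.2 to 74.7). The lambda gene Iglv1 had 4 and 1 counts, with an interval of the log2 ratio from -7.54 to 1.42 that included 0.

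In the heavy locus of animal 1, Ighv1-61 led with 20 counts (2.04 TPM), 20.6% of the heavy variable counts (13.1% to 30.0%). It had 0 in animal 2, or 6.29-fold less at the limit of 3 counts. Ighv3-6 followed with 13 counts and 1 in animal 2, then Ighv1-11 with 7, Ighv1-82 with 5.34, and Ighv1-15 and Ighv1-54 with 4 each, all 4 at 0 in animal 2. The Ighv1 family, the largest mouse heavy family, had 61 and 1 counts, or 62.9% and 5.88% of the locus. In animal 2 the leading gene was Ighv12-3 with 5 counts, 29.4% of the locus (10.3% to 56.0%), and it had 0 in animal 1; the interval of its log2 ratio started at -0.04 and so included 0. Ighv14-3 had 2 and 3 counts and Ighv14-2 had 1 and 3. As 6 of the 17 heavy variable counts of animal 2, the Ighv14 genes had more there than the 3 of 97 in animal 1, but the second transcript table turned this order, with 3 counts in animal 1 and 1 in animal 2. The other heavy variable genes of animal 2 had 1 count each.

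In the kappa locus of animal 1, Igkv8-30 led with 50 counts (4.78 TPM), or 22.7% of the locus (17.4% to 28.8%). It had 0 in animal 2 and was 15.7-fold higher in animal 1 at the limit of 3 counts. Igkv8-16 had 26 and 0 counts and was 8.18-fold higher on the same basis. Igkv14-126 and Igkv17-127 had 14 counts each and Igkv15-103 had 13, again with 0 in animal 2. The 5 leading genes held 53.2% of kappa variable counts in animal 1, and the 5 leading heavy genes held 50.5%. In animal 2 the only kappa variable gene above 1 count was Igkv4-91, with 2 counts in each animal. The Igkv8 family had 84 and 1 counts and the Igkv4 family 21 and 3. As background, Ighv12-3 with Igkv4-91, and Ighv11-2 with Igkv14-126, are known heavy and light pairs of B-1 cells that bind phosphatidylcholine. Ighv11-2 had 1 count in each animal and was looked up after the values were seen, and bulk counts carry no pairing of chains.

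**Figure D3:**
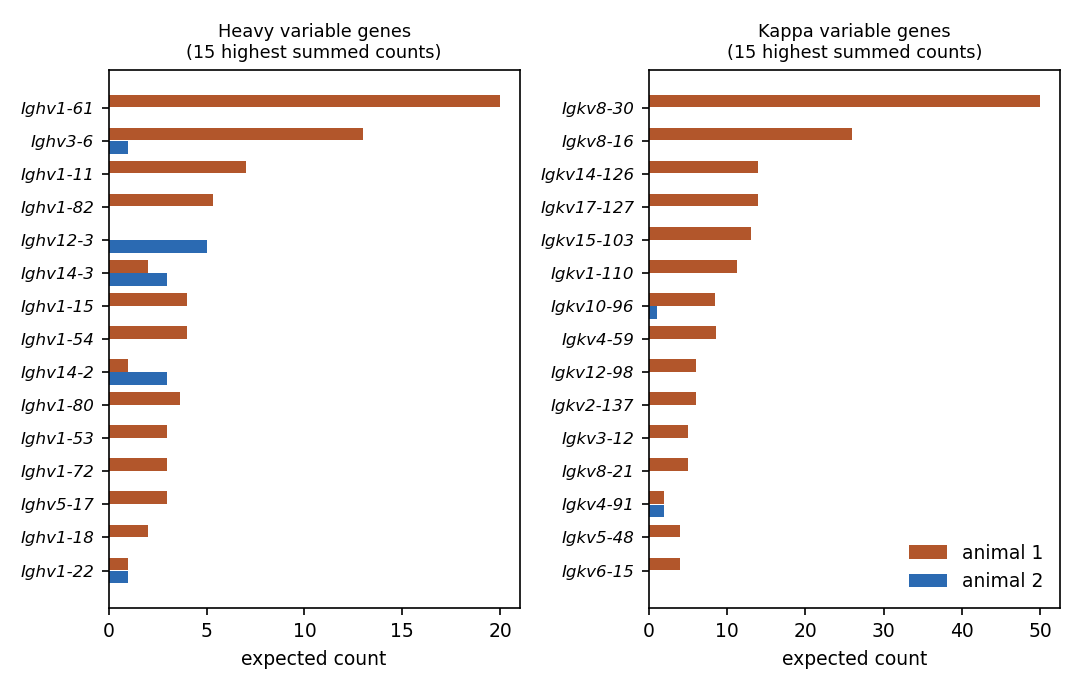
Expected counts of the 15 heavy and 15 kappa variable genes with the highest summed counts, 1 bar per animal. Igkv8-30 (50 counts) and Ighv1-61 (20) stand out in animal 1 and had 0 in animal 2, and Ighv12-3 (5 counts) was found in animal 2 alone.

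How many variable counts accompanied the constant counts depended on the locus and on the table. Heavy variable over heavy constant counts were 0.0640 in animal 1 and 0.0305 in animal 2, and kappa variable over kappa constant counts 0.453 and 0.233. In the second transcript table, made by another quantification, constant genes kept 83.8% and 93.7% of the counts of the first, while variable genes kept 27.9% and 32.0%. All genes together kept 96.9% and 99.5%. Igkc kept 57.0% and 56.7%, and heavy constant genes 92.8% and 96.2%. Of the variable members, 61 in animal 1 had a lower count in the second table and 5 a higher one. Kappa variable over constant counts were 0.201 and 0.235 there, so that animal 1 was no longer the higher. Ighv1-61 fell from 20 counts to 0 there, and Igkv8-30 from 50 to 8. Ighv1-61 is 98.6% identical to its nearest variable gene, Ighv1-52, and Igkv8-30 is 92.6% identical to Igkv8-21, so single variable genes are less certain than locus sums. The median variable gene was 362.5 bases long, and its effective length, the number of places a fragment can start, was 263.5 and 260.5 bases in the gene table but 91.2 and 87.3 in the second. The part of length or fragment size in this difference was not tested.

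**Figure D4:**
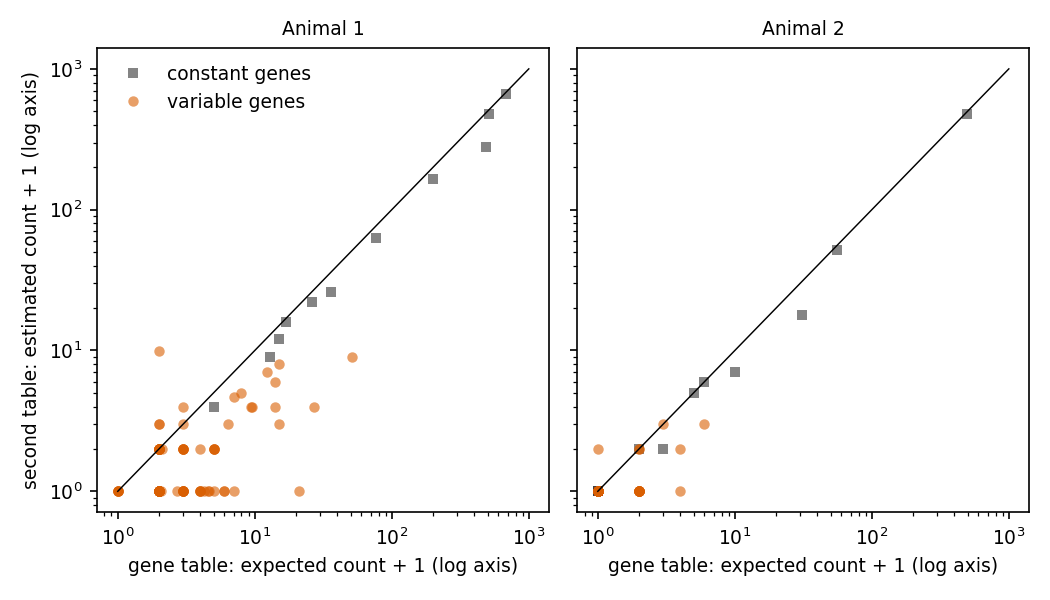
Count plus 1 of each member in the gene table (x axis) and the second transcript table (y axis) on log axes, 1 panel per animal, with the line of equality. Constant genes lie near or a little under the line, and most variable genes lie under it, with 27.9% and 32.0% of their summed counts kept.

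Cell markers and partner genes were read from lists beside the members, with counts at a mean of at least 10. Of 15 B cell genes, 10 reached it, and 4 were at least 2-fold higher in animal 1 and 0 in animal 2, with a median log2 ratio of -0.80. Among them, the receptor signalling chains Cd79a and Cd79b had 37 and 15, and 34 and 10 counts. Bank1, a B cell scaffold protein, had 28 and 5. The summed B cell level was 11.3 and 7.59 TPM, most of it Ebf1 (5.92 and 4.73 TPM), which adipocytes also express. Folds of Cd79a, Cd79b and Bank1, 2.33 to 5.29, were smaller than those of Igha, Igkc and the gamma genes. Ms4a1, which encodes CD20, had 19 and 10 counts and was under 2-fold.

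Of 14 plasma cell genes, 13 reached the mean count, with 2 at least 2-fold higher in animal 1, 2 in animal 2 and a median log2 ratio of -0.03. Jchain, which links IgA and IgM into polymers, had 124 and 9 counts, a log2 ratio of -3.63 (-4.86 to -2.73), reached by 86 genes or 0.506%; the second transcript table gave it 135 and 20 counts. Pou2af1, a coactivator of immunoglobulin genes, was the other one at least 2-fold higher in animal 1, at 0.16 and 0.06 TPM. Irf4, a regulator of plasma cell fate, went the other way with 228 and 794 counts, as did Ly6k with 119 and 350. Mzb1, a chaperone of antibody secretion, had 15 and 12.7 counts, but 16.6 and 0 in the second transcript table, and Tnfrsf17, which encodes the plasma cell receptor BCMA, had 1 and 0. Xbp1 (44.95 and 62.2 TPM) and Txndc5 (53.0 and 53.3 TPM) make up most of the list's 117 and 147 TPM and are expressed by many secretory cells.

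Among 12 genes of the secretory machinery, all passed the mean count, and Jchain alone was at least 2-fold higher in animal 1. Ell2, an elongation factor that favours the secreted heavy chain end, had 1455 and 3594 counts and was the 1 gene at least 2-fold higher in animal 2. By any margin, 5 of the 12 were higher in animal 1 and 7 in animal 2. Of 10 genes of receptor assembly and signalling, 9 passed and 3 were at least 2-fold higher in animal 1, Cd79a and Cd79b among them. The kinases Lyn, Syk and Btk were under 2-fold, and by any margin 5 genes were higher in animal 1 and 4 in animal 2. Of 12 immunoglobulin transport and Fc receptor genes, 8 passed. Of these, 0 were at least 2-fold higher in animal 1 and 1, Fcgr4 (36 and 72 counts), in animal 2. Regardless of margin, 4 of the 8 were higher in animal 1 and 4 in animal 2. Fcgrt, the neonatal Fc receptor that recycles IgG, had 34.0 and 33.5 TPM. Pigr, which carries IgA and IgM across epithelium, had 27 and 16 counts. No gene of this list that passed was 2-fold higher in animal 1.

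Genes of the rearrangement and switching machinery were near 0. Of 10 such genes, 2 reached the mean count, Ung and Polh, which act in DNA repair in all cells, and neither was 2-fold apart. Rag2, Dntt and Igll1, used during B cell development, were at 0 in both animals in the gene table, and Rag1 had 1 and 0 counts. In the second transcript table Dntt and Igll1 were again at 0, while Rag2 had 7.63 and 7.72 counts. Of 13 survival and homing genes, 8 passed, with 2 at least 2-fold higher in animal 1 and 0 in animal 2. By any margin, 4 of the 8 were higher in animal 1 and 4 in animal 2. Ccr10, a homing receptor of IgA plasma cells, had 20 and 2 counts, a log2 ratio of -2.95 (-6.38 to -1.20). Cxcl13, a B cell attracting chemokine, had 59 and 24. The survival factor Tnfsf13b, or BAFF, had 1.82 and 3.11 TPM, and Il6, Ccr9 and Il21 were at 0 in both in the gene table. The second transcript table also had Il6 at 0, but gave Ccr9 3.00 and 14.01 counts and Il21 1.00 and 2.02.

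Markers of stroma, fat and muscle were also apart in these 2 libraries, and their part in the immunoglobulin difference was not tested. Of 6 lymph node stroma genes in the table, 5 passed and 3 were at least 2-fold higher in animal 1, the chemokines Cxcl13, Ccl19 (24.8 and 8.67 counts, but 24.7 and 15.7 in the second transcript table) and Ccl21a (77.1 and 25.7 counts). The other 2 that passed, Clu and Cr1l, were higher in animal 2, by less than 2-fold. The summed level of this list was also higher in animal 2, at 128 TPM in animal 1 and 160 TPM in animal 2. Clu and Cr1l made up most of that sum in both animals, and Clu the larger part. The 3 chemokines were a small part of the sum and were higher in animal 1 by TPM as well, so the sum does not describe them. Madcam1, a vessel addressin of lymphoid tissue, was at 0 in both. Of 10 adipocyte genes, 10 were higher in animal 1 and 2 at least 2-fold, Ucp1 (743 and 298 TPM) and Lep (0.71 and 0.25 TPM), with 3528 and 2301 TPM in all. Skeletal muscle, given above, was the list furthest apart, with a median log2 ratio of -9.62 over 8 genes. The 5 erythroid genes, read as a sign of blood, had 2056 and 1577 TPM and none was 2-fold apart. T cell genes were low in both animals, with 1 of 12 at the mean count, Lck (0.42 and 0.70 TPM), and a summed level of 1.82 and 1.79 TPM.

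**Figure D5:**
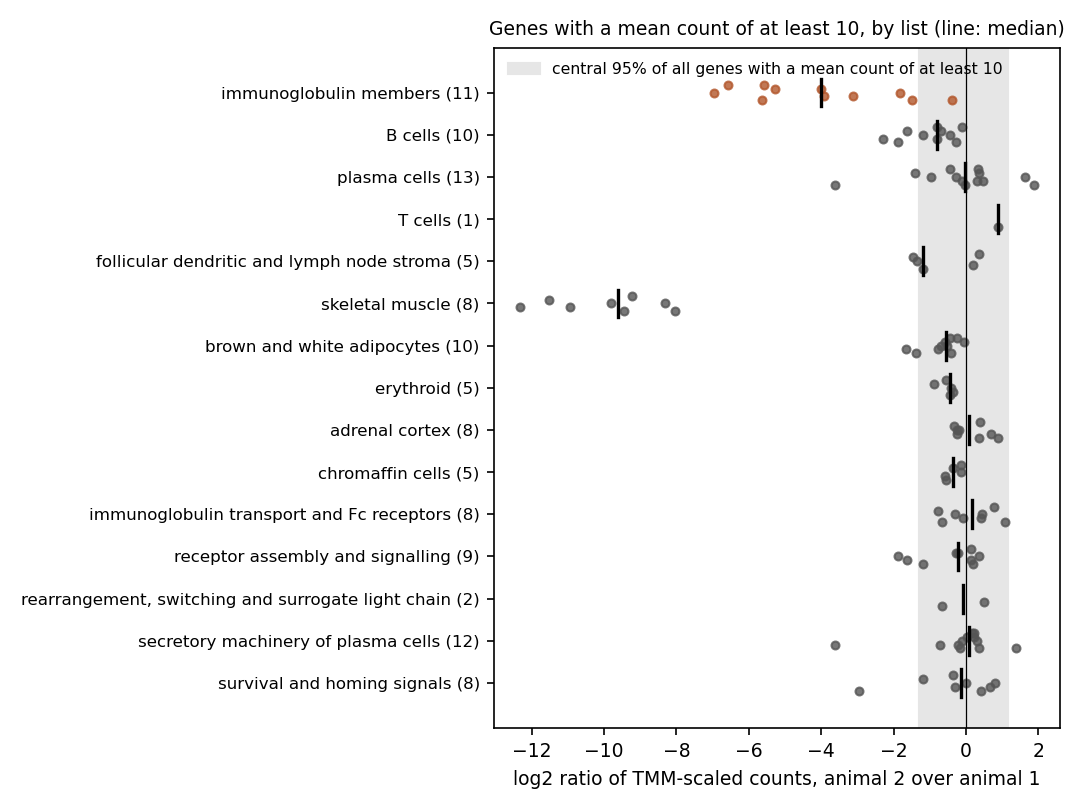
Log2 ratio of TMM-scaled counts, animal 2 over animal 1, for each gene whose mean count reached 10, by list (number of genes in brackets). The black line is the list's median, and the grey band holds 95% of all genes, from -1.29 to 1.16. The 11 immunoglobulin members (median -4.00) and the 8 muscle genes (median -9.62) extend far to the left, while the B cell genes have a median of -0.80. Most of the 11 members reached the mean count only through animal 1, and their median rests largely on such members.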

How the data were processed

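Adrenal total RNA of 2 animals was analysed, with 1 library each. Per the file headers, the deposited gene table and first transcript table hold expected counts and TPM from the authors' quantification, with columns named as RSEM writes them. The TPM intervals in these deposited tables were used as given, their level being not stated. The second deposited transcript table, with estimated counts and TPM, has columns named as kallisto writes them. The sources used here give no aligner or settings. The submitters' processing notes name mm10 and GENCODE M21, and gene types, coordinates and transcript sequences were read from GENCODE release M 21 (GRCm 38).

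Named genes excluded spike-ins and 26248 numbered entries, which held 3.76 and 4 counts. Library factors came from TMM in edgeR 4.0.16 (R 4.3.3). Log2 ratios used counts plus 0.5, and calls needed a mean count of 10 and a 2-fold ratio. This rule was tested on simulated counts that held counting error alone, so variation between animals was not covered. For folds, genes at 0 were set to a limit of 3 counts, and counting error in the other animal was left out. Intervals at 95% were exact binomial or Poisson (scipy 1.17.1), on counts rounded to whole numbers. Alternatives were DESeq2 1.42.0 size factors, spike-in and total scaling, pseudocount 5, other count minimums, TPM and the second table. Named were all constant and lambda members, the 5 leading heavy and kappa variable genes of each animal (ties at 1 left out), and in each list up to 4 genes by TPM, those 2-fold apart and those at 0. The members, lists and tests were chosen with earlier results of these data known. Annotated D and J segments have an effective length of 0 in the gene table and are listed at 0. Fdcsp had no row in the gene table. Values of 2 listed genes are not reported here.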

Additional observations from a re-analysis of the deposited data

How the results depend on the processing

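No paired analysis was possible because the series has 1 group. With 2 animals, leaving out either leaves no comparison. The summed constant and variable genes stayed higher in animal 1 in each setting tried. The log2 ratio of the summed constant genes (main value -1.69) was -1.47 with spike-in scaling and -2.24 from summed TPM, which weights short light chain genes more, and -3.61 without Ighm, a setting added after seeing the data. The 10 members at least 2-fold higher in animal 1 became 3 under the stricter rule, 79 with no count minimum and 6 in the second table. The 0 at least 2-fold higher in animal 2 became 6 with no minimum, all resting on a few counts. Without a minimum, a member with 1 count in animal 1 and 0 in animal 2 was called, so many of the 79 also rest on a few counts. No share over all genes is given without a minimum or in the second table. By TPM the heavy share of Ighm was 36.0% and 84.5%, and that of Igha 39.2% and 13.9%. In the second table the locus share of Ighv1-61 was 0% and that of Igkv8-30 14.4%. Variable genes with a count of at least 3 numbered 29 and 3, and in the second table animal 2 had 10 with a count of at least 1. Variable over constant counts in that table were 0.0234 and 0.00745 for the heavy locus and 0.201 and 0.235 for kappa, where the order of the animals turned from the 0.453 and 0.233 of the gene table. The causes of the differences between tables were not tested. Depth limits single variable genes, of which 48 of 82 had a summed count of 2 or less.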

Other observations

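Immunoglobulin segments outside the selection gave few counts. Of 158 variable pseudogenes, 3 had a count: Ighv3-2 had 8 in animal 1 and 1 in animal 2, Ighv4-2 had 4 and 0, and Igkv11-114 had 1 and 0. Together they held 13 and 1 counts, and 5 and 0 in the second transcript table. All 19 D genes and all 14 J genes were listed at 0, each with an effective length of 0.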
